A study of Homo sapiens with 6 samples.

Results

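The microRNA biogenesis and Argonaute genes are the 10 genes whose proteins carry a microRNA from its primary transcript to its working complex: DROSHA, DGCR8, XPO5, DICER1, TARBP2, PRKRA, AGO1, AGO2, AGO3 and AGO4. They were taken by name, through current symbols or older ones such as EIF2C for AGO, and all 10 were found, each on 1 row, among 22421 tested genes. Their RNA was measured in SW480, an established epithelial line from a human Dukes B colon adenocarcinoma. Cells were transfected for 48 h with 30 pmol of siRNA, either KHSRP siRNA or a scramble siRNA without a target, by Lipofectamine. There were 3 Affymetrix arrays per siRNA, called biological replicates in the labels, and both groups went through transfection, so no untransfected cells enter the comparison.

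A microRNA is first cut from its nuclear transcript by the Microprocessor, which pairs the nuclease DROSHA with the RNA-binding protein DGCR8. Exportin-5, the product of XPO5, carries the hairpin to the cytoplasm, where DICER1 with its partners TARBP2 or PRKRA trims it to a short duplex, and an Argonaute protein keeps 1 strand and uses it to silence target transcripts. KHSRP is known to bind the terminal loop of some precursors, let-7 among them, and to help both cutting steps. The comparison therefore asks whether the RNA of the shared machinery differed when the siRNA against this cofactor was given. The let-7a-1 hairpin is shown because it is the best known precursor bound by KHSRP and marks where the 10 proteins act. It lies on the plus strand at chr9:94175957-94176036 in GRCh38.p14 (RefSeq), and capitals mark the mature arms that DROSHA and DICER1 release, with the terminal loop in lower case between them.
let-7a-1: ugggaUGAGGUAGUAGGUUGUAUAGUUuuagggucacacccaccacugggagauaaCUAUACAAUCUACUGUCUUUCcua

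KHSRP itself, the siRNA target, was read on a row that also carries the annotation of MIR3940. Its deposited log2 intensity was 5.62, 5.60 and 5.56 on the arrays labelled KHSRP siRNA and 5.75, 5.59 and 5.64 on those labelled scramble siRNA. The groups overlapped, at -0.07 on the log2 scale (SE 0.08, limma adjusted p = 0.804, with a 95% confidence interval from -0.26 to 0.12). The interval is 83.6% to 109% of the scramble level. No knockdown of KHSRP RNA was seen on this row, so it does not check the labels. Groups are therefore called by their labels. Differences below are log2 intensities of KHSRP siRNA minus scramble siRNA arrays, from limma across all tested genes with Benjamini-Hochberg adjustment, and the word called marks an adjusted p under 0.05. Since probes of different genes respond differently, levels are compared between groups and never between genes.

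Among all tested genes, 170 were called (0.758% of 22421), 114 higher (0.508%) and 56 lower (0.25%) with KHSRP siRNA. Array medians ran from 4.3 to 4.38 and did not follow the groups. Pearson correlations over all rows were 0.987 to 0.991 within groups and 0.984 to 0.988 between them. Colon epithelial markers such as EPCAM, KRT8 and KRT18 were detected. For 7 of 10 the higher group mean lay above 4.73, the 95th percentile of 359 olfactory receptor genes, which serve here as a background level. VIL1 passed by its KHSRP siRNA mean of 4.88, its scramble mean being 4.60. KRT20, CDX1 and LGALS4, other colon markers, lay under the background level. Filters by level below also take the higher group mean. The summed level of these 10 markers was 16.14 to 16.33 (log2) in KHSRP siRNA arrays and 15.66 to 15.82 in scramble arrays, and its part in the differences below was not tested. The sum follows the keratin genes KRT18 and KRT8, at 0.49 and 0.58 (limma adjusted p = 0.0679 and 0.0716). KRT19, VIL1 and LGALS4 were at 0.55, 0.28 and 0.19 (limma adjusted p = 0.123, 0.333 and 0.309). Each of these markers was higher on every KHSRP siRNA array than on any scramble array, as were 11.6% of all tested genes. EPCAM, CDH1, CDX2, KRT20 and CDX1 were at 0.08, 0.03, -0.09, 0.11 and 0.06 with overlapping groups. Of 12 measured markers of immune, fibroblast and endothelial cells, LYZ alone lay above the background level, and the summed levels overlapped (7.57 to 7.74 and 7.65 to 7.69). All 10 machinery genes lay above the background level, and so did the KHSRP row, at means of 5.59 with KHSRP siRNA and 5.66 with scramble siRNA.

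None of the 10 genes was called, though the sizes of their differences varied widely. XPO5, DICER1, AGO1 and AGO3 stood between -0.83 and -0.54, DROSHA at -0.28, and AGO4 at 0.44. DGCR8, TARBP2, PRKRA and AGO2 lay between -0.02 and 0.07. An unadjusted limma p under 0.05 was reached by 6 of the 10, against 14.4% of all tested genes, with 5 of them lower (background 5.9%) and 1 higher (8.52%). The same 6 had groups that did not overlap, again 5 lower (background 7.83%) and 1 higher (11.6%). These background shares are over all tested genes, dim ones included. Among the 11659 genes above the olfactory receptor level, fitted alone, 2598 had an unadjusted limma p under 0.05, and all 10 genes lie in that set. The median of the 10 differences was -0.15, beside 0.02 for all tested genes. The genes were chosen with results of these data known, so no test was made over the group. An exact permutation test of 3 arrays against 3 allows no p below 0.1. Groups that do not overlap always reach it, as for these 6 genes.

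**Figure D1:**
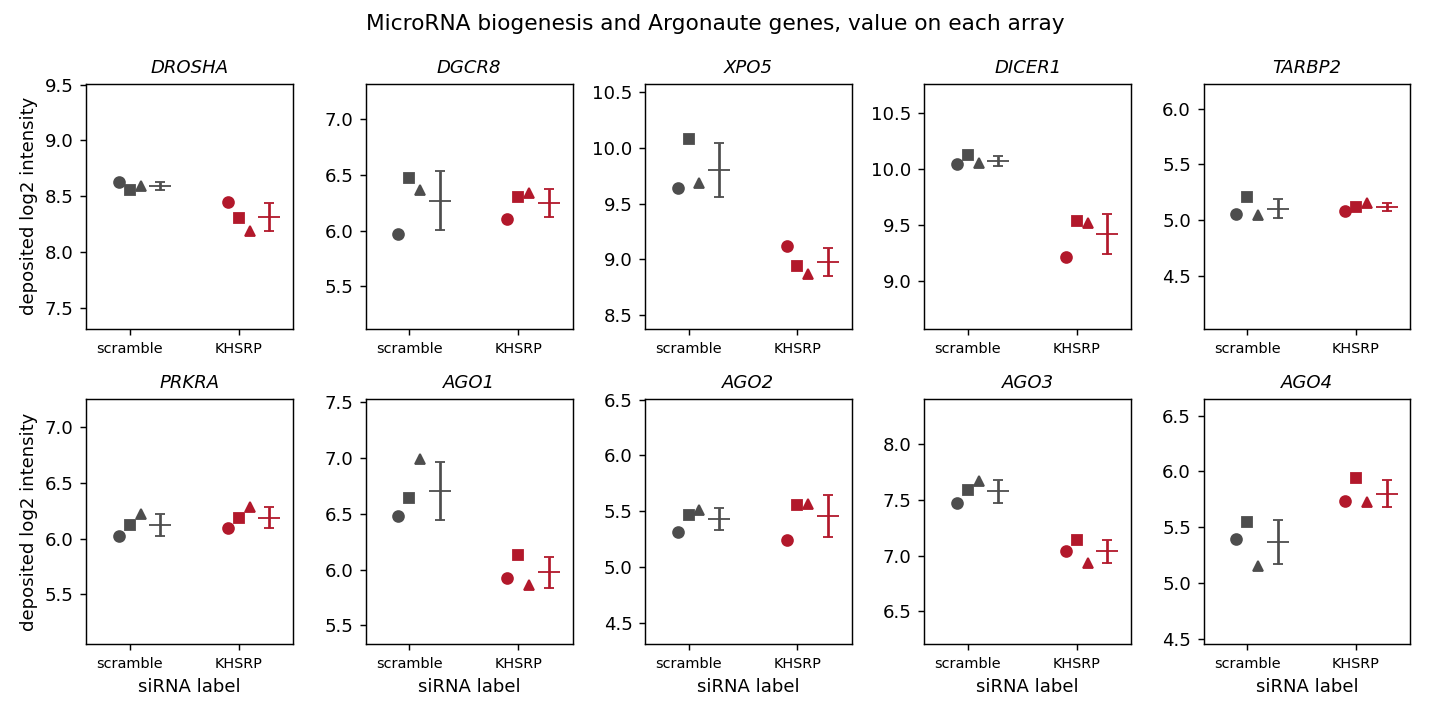
Deposited log2 intensity (vertical axis, the same span in each panel) of the 10 genes on each array, scramble siRNA in grey and KHSRP siRNA in red; circle, square and triangle are replicates 1, 2 and 3, and the bar is the mean ± SD of 3 arrays. XPO5, DICER1, AGO1, AGO3 and DROSHA are lower on all 3 KHSRP siRNA arrays and AGO4 is higher, while the other 4 genes overlap.

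The nuclear step was represented by DROSHA, the nuclease that cuts the primary transcript, and DGCR8, which recognises its hairpin. DROSHA read 8.45, 8.30 and 8.19 on the KHSRP siRNA arrays and 8.63, 8.56 and 8.59 on the scramble arrays. Every KHSRP siRNA array lay below every scramble array, by a small margin for replicate 1. The means were 8.31 ± 0.13 and 8.59 ± 0.04 (SD, n = 3), a difference of -0.28 (SE 0.09, limma adjusted p = 0.220) or 82.5% of the scramble level (95% confidence interval 71.1% to 95.6%). Such percentages take the deposited values as plain log2.

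DGCR8 read 6.11, 6.30 and 6.33 with KHSRP siRNA and 5.97, 6.47 and 6.37 with scramble siRNA. The scramble arrays spanned both the lowest and the highest value, so the groups overlapped fully. Its difference was -0.02 (SE 0.14, limma adjusted p = 0.979), with an interval from 78.0% to 125% of the scramble level, and its sign was not settled, running from -0.17 without scramble replicate 1 to 0.08 without scramble replicate 2. The row is also annotated with MIR3618 and MIR1306, microRNA genes inside DGCR8, and the DGCR8 messenger RNA is known as a substrate of the Microprocessor through such hairpins. The mir-3618 hairpin is shown for that reason. It lies at chr22:20085746-20085833 on the plus strand (GRCh38.p14, RefSeq), with the mature sequence in capitals.
mir-3618: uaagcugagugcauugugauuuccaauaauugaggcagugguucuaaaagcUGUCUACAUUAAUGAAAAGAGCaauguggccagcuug
The mature microRNAs that share the row have different seeds, and bases 2 to 8, the seed, are in capitals here.
hsa-miR-3618: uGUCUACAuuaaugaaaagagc
hsa-miR-1306-5p: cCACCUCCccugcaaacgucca
hsa-miR-1306-3p: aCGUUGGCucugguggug
How much of the row's signal comes from the hairpins rather than from the DGCR8 messenger RNA was not tested.

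XPO5, the exporter of precursor hairpins, had the largest difference of the 10. It read 9.12, 8.94 and 8.87 on the KHSRP siRNA arrays and 9.64, 10.08 and 9.69 on the scramble arrays. The groups were separated by a gap larger than the whole range of the KHSRP siRNA arrays. The means were 8.98 ± 0.13 and 9.80 ± 0.24 (SD, n = 3), a difference of -0.83 (SE 0.14, limma adjusted p = 0.0527) or 56.4% of the scramble level (95% confidence interval 45.1% to 70.4%). By unadjusted p it stood at rank 191 of 22421 genes, just past the 170 called, and 63 genes had a lower estimate. RAN, the GTPase that loads exportins, and the general exportin XPO1 stood at 0.02 (SE 0.08) and -0.01 (SE 0.13), both with overlapping groups.

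DICER1, the cytoplasmic nuclease, read 9.21, 9.53 and 9.51 with KHSRP siRNA and 10.04, 10.12 and 10.06 with scramble siRNA. The scramble arrays lay within 0.10 of one another, and the KHSRP siRNA array of replicate 1 was the lowest of all. The means were 9.42 ± 0.18 and 10.07 ± 0.04 (SD, n = 3), a difference of -0.66 (SE 0.11, limma adjusted p = 0.0515, rank 178) or 63.5% of the scramble level (95% confidence interval 53.4% to 75.5%). DICER1 is also known as a target of let-7, whose mature 5p strand carries this seed.
hsa-let-7a-5p: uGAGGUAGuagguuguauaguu
The antisense gene DICER1-AS1, named for its position and not by its values, has a row of its own. It was at -0.16 (SE 0.14, limma adjusted p = 0.701) with overlapping groups, which ran from 5.77 to 6.27 with KHSRP siRNA and from 6.12 to 6.32 with scramble siRNA.

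The double-stranded RNA-binding partners of DICER1 showed no such separation. TARBP2, which stabilises DICER1 and helps load Argonaute, read 5.08, 5.11 and 5.15 with KHSRP siRNA and 5.06, 5.20 and 5.05 with scramble siRNA. Its difference was 0.01 (SE 0.08, limma adjusted p = 0.974), with an interval from 88.4% to 115% of the scramble level, and its sign turned in several alternatives (-0.02 to 0.06). PRKRA, also an activator of the kinase PKR, read 6.10, 6.19 and 6.28 with KHSRP siRNA and 6.02, 6.12 and 6.22 with scramble siRNA. Its difference was 0.07 (SE 0.09, limma adjusted p = 0.842), with an interval from 90.3% to 122%. Both intervals lie above the estimates for XPO5 and DICER1.

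Among the Argonaute genes, which encode the proteins that hold the mature strand, differences went in both directions. AGO1 read 5.93, 6.13 and 5.86 on the KHSRP siRNA arrays and 6.48, 6.65 and 7.0 on the scramble arrays. The lowest scramble array stood clear of the highest KHSRP siRNA array. The means were 5.98 ± 0.14 and 6.71 ± 0.26 (SD, n = 3), a difference of -0.73 (SE 0.15, limma adjusted p = 0.0732) or 60.2% of the scramble level (95% confidence interval 47.5% to 76.4%).

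AGO3 read 7.04, 7.14 and 6.94 with KHSRP siRNA and 7.47, 7.59 and 7.67 with scramble siRNA. Its groups had like spreads and did not overlap. The means were 7.04 ± 0.10 and 7.58 ± 0.10 (SD, n = 3), a difference of -0.54 (SE 0.09, limma adjusted p = 0.0577) or 68.9% of the scramble level (95% confidence interval 59.2% to 80.3%).

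AGO4 went the other way. It read 5.74, 5.94 and 5.72 with KHSRP siRNA and 5.39, 5.54 and 5.15 with scramble siRNA, and every KHSRP siRNA array lay above every scramble array. The means were 5.80 ± 0.12 and 5.36 ± 0.20 (SD, n = 3), a difference of 0.44 (SE 0.12, limma adjusted p = 0.161) or 135% of the scramble level (95% confidence interval 111% to 165%).

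AGO2 encodes the member best known for cutting its targets. It read 5.24, 5.56 and 5.57 with KHSRP siRNA and 5.31, 5.47 and 5.51 with scramble siRNA, and in both groups replicate 1 was the lowest. Its difference was 0.03 (SE 0.12, limma adjusted p = 0.963), with an interval from 84.4% to 123% of the scramble level, and its sign turned in some alternatives (-0.03 to 0.13).

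**Figure D2:**
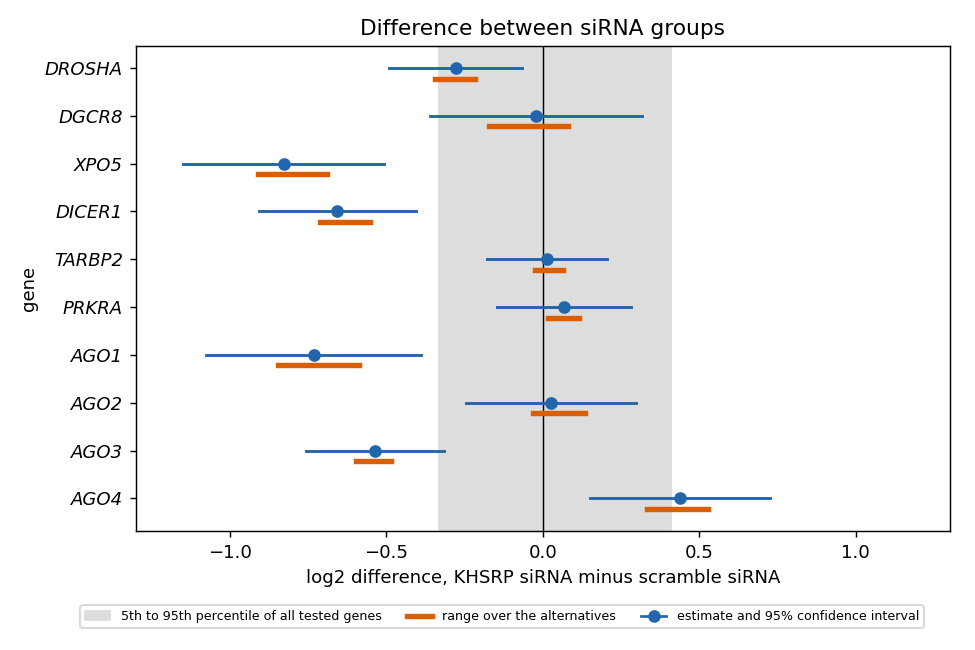
Log2 difference, KHSRP siRNA minus scramble siRNA (horizontal axis), for each of the 10 genes; blue points and lines are limma estimates with 95% confidence intervals, orange bars the range over 17 alternative settings, and the grey band the 5th to 95th percentile of all tested genes (-0.33 to 0.41). XPO5, DICER1, AGO1 and AGO3 lie left of the band and AGO4 just right of it.

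The Argonaute genes were then set against each other within each array, which removes whatever shifts an array as a whole. For each of the 6 pairs, the difference between the genes was centred on its mean over the scramble arrays, so that values show unequal change and no order of levels. AGO1 minus AGO4 was at -1.15, -1.15 and -1.20 on the KHSRP siRNA arrays and at -0.26, -0.24 and 0.50 on the scramble arrays. The 3 KHSRP siRNA arrays were nearly alike, and the mean change was -1.17 (SE 0.25). The SE of these pair changes come from the spread of the 3 arrays in each group and not from limma. AGO3 minus AGO4 changed by -0.97 (SE 0.16), AGO1 minus AGO2 by -0.76 (SE 0.16), AGO2 minus AGO3 by 0.56 (SE 0.13) and AGO2 minus AGO4 by -0.41 (SE 0.18). The smallest change was that of AGO1 minus AGO3, at -0.19 (SE 0.10). In every one of the 6 pairs the groups did not overlap. Each pair holds AGO1, AGO3 or AGO4, whose groups lay apart singly, and no share over other gene pairs was computed. The two-sided exact permutation test gave p = 0.1 for each, the smallest it can give here. Groups that do not overlap always give this p, and adjustment over the 6 pairs leaves equal p unchanged, so the test adds nothing to the separation. For AGO1 and AGO3 against AGO4 this separation was fixed by the single genes, whose groups already lay apart in opposite directions. Pairs that share a gene are not independent, so the 6 results are not separate support. AGO4, AGO1 and AGO3 are direct neighbours on chromosome 1 in that order, with 0 other protein-coding genes between them in the RefSeq gene table, so neighbouring genes had estimates of opposite sign. Argonaute genes resemble each other in sequence, and whether their rows share probes was not tested.

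**Figure D3:**
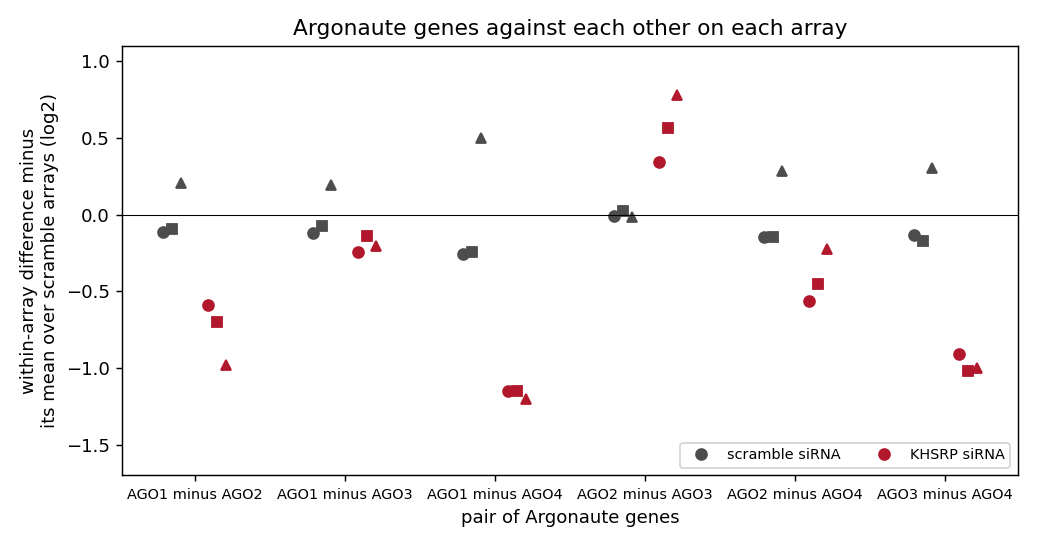
Within-array log2 difference between 2 Argonaute genes minus its mean over the scramble arrays (vertical axis) for the 6 pairs (horizontal axis); scramble siRNA in grey, KHSRP siRNA in red, and circle, square and triangle are replicates 1, 2 and 3. AGO1 and AGO3 against AGO4 show the largest shifts, -1.17 and -0.97 on average, and AGO1 against AGO3 the smallest.

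No other setting turned the sign of XPO5, DICER1, AGO1, AGO3, DROSHA, AGO4 or PRKRA in the 17 alternatives tried, but the calls depended on the setting. When only genes above the median level were tested, XPO5, DICER1, AGO1 and AGO3 were called by limma at adjusted p of 0.0353, 0.0353, 0.0477 and 0.0411, where 3.61% of 11556 genes were called, 1.34% lower. The same 4 were called among genes above the olfactory receptor level, where 3.56% of 11659 genes were called, 1.32% lower. With weights for the quality of each array these 4 were called (0.0278, 0.0278, 0.0335 and 0.0269), where 3.15% of all tested genes were called, 1.36% lower. DICER1 was called without KHSRP siRNA replicate 1 as well (adjusted p = 0.0443, difference -0.55), where 1.5% of genes were called, 0.455% lower. In all the other alternatives none of the 10 genes was called. The highest limma adjusted p there was 0.190 for XPO5, 0.173 for DICER1, 0.248 for AGO1 and 0.206 for AGO3.

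Start regions are shown for the genes on which these results turn: XPO5 and DICER1, which have the smallest adjusted p of the 10, and the neighbours AGO1 and AGO4, with opposite estimates. Each window runs from 250 bases before to 50 after a transcript start (RefSeq, GRCh38.p14). Capitals mark matches on either strand to any of 4 motifs. The GC box was searched as GGGCGG, and the CCAAT box, bound by the factor NF-Y, by the letters of its name. The ETS motif was searched as CCGGAAG, and the NRF1 motif in a form with 1 free base. The XPO5 window is chr6:43575989-43576288 on the minus strand and the AGO1 window chr1:35882959-35883258 on the plus strand. The DICER1 window is chr14:95157480-95157779 on the minus strand, the first listed of 5 starts, and the AGO4 window chr1:35807766-35808065 on the plus strand.
XPO5: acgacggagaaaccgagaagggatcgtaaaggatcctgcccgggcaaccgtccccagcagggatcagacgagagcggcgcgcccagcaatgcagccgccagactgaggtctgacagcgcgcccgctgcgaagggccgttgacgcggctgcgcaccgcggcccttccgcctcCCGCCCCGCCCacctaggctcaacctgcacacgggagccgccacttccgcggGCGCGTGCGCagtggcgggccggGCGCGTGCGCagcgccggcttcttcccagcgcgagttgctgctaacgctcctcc
DICER1: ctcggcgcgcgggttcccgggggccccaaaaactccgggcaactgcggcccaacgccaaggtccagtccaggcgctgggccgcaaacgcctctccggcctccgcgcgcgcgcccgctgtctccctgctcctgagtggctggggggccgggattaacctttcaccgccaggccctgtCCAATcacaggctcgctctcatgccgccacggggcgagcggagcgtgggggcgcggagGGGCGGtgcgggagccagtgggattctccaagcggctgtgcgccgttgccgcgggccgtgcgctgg
AGO1: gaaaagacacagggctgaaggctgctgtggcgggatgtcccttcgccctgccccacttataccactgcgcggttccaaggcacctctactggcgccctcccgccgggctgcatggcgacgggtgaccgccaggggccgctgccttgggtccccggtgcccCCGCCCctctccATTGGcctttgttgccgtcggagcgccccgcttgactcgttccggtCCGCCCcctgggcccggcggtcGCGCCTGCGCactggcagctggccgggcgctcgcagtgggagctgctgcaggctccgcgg
AGO4: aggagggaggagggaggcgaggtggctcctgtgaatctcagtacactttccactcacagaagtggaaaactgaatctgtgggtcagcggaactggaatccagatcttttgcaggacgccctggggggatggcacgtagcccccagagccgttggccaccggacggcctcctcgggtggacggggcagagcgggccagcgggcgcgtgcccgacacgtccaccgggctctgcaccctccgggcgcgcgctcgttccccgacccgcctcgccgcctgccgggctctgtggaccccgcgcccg
The NRF1 letters occurred 2 times in the XPO5 window, where both matches overlap no other motif, and 1 time in that of AGO1, and in no window of the other 7 genes that had one. Among all 27305 genes with a window, 6.98% held them. A gene was counted if any of its windows matched, and the shares are not matched for the number of windows. DICER1 has 5 windows and TARBP2 and PRKRA 3 each, whereas the 27305 genes have 35116 windows in all. GC box letters were found for 8 of 9 genes (48.3% of all genes) and CCAAT letters for 6 of 9 (39.7%), and the AGO4 window held neither. The TATA box, searched as TATAAA, was found for 0 of 9 genes, against 14% of all genes. The same held for the E-box that MYC proteins bind, searched as CACGTG (8.77% of all genes), and for the cyclic AMP response element, searched as TGACGTCA (2.25%). ETS letters were found for AGO3 only (12.2% of all genes). These matches describe letters and are not binding sites.

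Around the 10 genes, 45 of 49 listed cofactors were measured and 0 were called by limma, with 9 at an unadjusted p under 0.05 (20.0%, background 14.4%), 6 lower and 3 higher. Of the 45, 40 lay above the olfactory receptor level. In a fit of the 11659 genes above that level alone, 2598 had an unadjusted limma p under 0.05. Groups did not overlap for 13 (28.9%, background 19.4%), and the median difference was -0.08. Background shares here and below are over all tested genes, dim ones included. The lists were chosen with earlier results of these data known.

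Microprocessor cofactors and nuclear partners had estimates on both sides, 8 of 10 below 0 (background 45.1%). Groups did not overlap for 4 (40%, background 19.4%), 3 lower (background 7.83%) and 1 higher (background 11.6%). The lower genes were SRRT, NCBP1 and SAFB2, at -0.40, -0.34 and -0.10 (SE 0.11, 0.09 and 0.08). Their limma adjusted p were 0.147, 0.163 and 0.684, and the higher gene was DDX5. ERH was also above 0, at 0.59 (SE 0.24, limma adjusted p = 0.320), with overlapping groups. The RNA helicase DDX5, a Microprocessor subunit, read 12.71, 13.43 and 13.53 with KHSRP siRNA and 12.49, 12.68 and 12.54 with scramble siRNA, a difference of 0.66 (SE 0.21, limma adjusted p = 0.208). Replicate 1 of the KHSRP siRNA arrays stood just above the scramble arrays and well below the other two. Without it the difference was 0.91 and DDX5 was called (adjusted p = 0.0308). Its paralog DDX17 was at -0.11 (SE 0.15) with overlapping groups, and at 0.03 without KHSRP siRNA replicate 1.

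Among genes for tailing and decay of precursors, 0 of 6 had an unadjusted p under 0.05 (background 14.4%). Groups did not overlap for 1 (16.7%, background 19.4%). The exonuclease gene DIS3L2, which degrades tailed let-7 precursors, was at -0.18 (SE 0.08, limma adjusted p = 0.361) without overlap. The uridylyltransferase gene TUT7 was at -0.12 (SE 0.10). LIN28A and LIN28B, whose proteins block let-7 maturation, read 3.96 and 3.53 on average with KHSRP siRNA and 3.89 and 3.69 with scramble siRNA, all under the background level of 4.73.

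Among 7 chaperones and other factors of Argonaute loading, groups did not overlap for 2 (28.6%, background 19.4%). PTGES3, the gene of the co-chaperone p23, was at -0.22 (SE 0.08, limma adjusted p = 0.263), every KHSRP siRNA array lying below every scramble array. HSP90AA1, an HSP90 gene, was at 0.12 (SE 0.07, limma adjusted p = 0.545), every KHSRP siRNA array lying above. The co-chaperone gene FKBP4 had the largest estimate, -0.23 (SE 0.13, limma adjusted p = 0.488), and HSP90AB1 was at -0.12 (SE 0.10), both with overlapping groups. The 7 measured members ran from -0.23 to 0.12.

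Of 11 partners of Argonaute in silencing, FMR1 had the largest difference. FMR1, which encodes the RNA-binding protein lost in fragile X syndrome, read 10.41, 10.45 and 10.25 with KHSRP siRNA and 10.81, 10.79 and 11.09 with scramble siRNA, and the groups did not overlap. Its difference was -0.53 (SE 0.11, limma adjusted p = 0.0867), and it was called with array weights (-0.59, adjusted p = 0.0423). Groups did not overlap for 2 of the 11 (18.2%, background 19.4%), FMR1 and LIMD1, the latter at -0.16 (SE 0.07, limma adjusted p = 0.364). The median of this list was -0.01.

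Genes of microRNA turnover included SND1, a nuclease gene, at 8.32 ± 0.14 with KHSRP siRNA and 8.74 ± 0.11 with scramble siRNA (SD, n = 3), a difference of -0.42 (SE 0.10, limma adjusted p = 0.116). The exonuclease gene XRN2 was at -0.09 (SE 0.11). Groups did not overlap for 4 of the 6 (66.7%, background 19.4%), of which 3 were lower (background 7.83%) and 1 higher (background 11.6%). PNPT1 and TENT4B, lower like SND1, were at -0.20 and -0.26 (SE 0.09 and 0.10, limma adjusted p = 0.364 and 0.298). XRN1 was the higher gene, at 0.31 (SE 0.11, limma adjusted p = 0.260). The germline relatives of the Argonaute genes gave a reference for an unexpressed family. PIWIL1 and PIWIL2 were at -0.002 and -0.05 (SE 0.08 and 0.09), and all 3 measured PIWI genes lay under the background level in both groups.

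**Figure D4:**
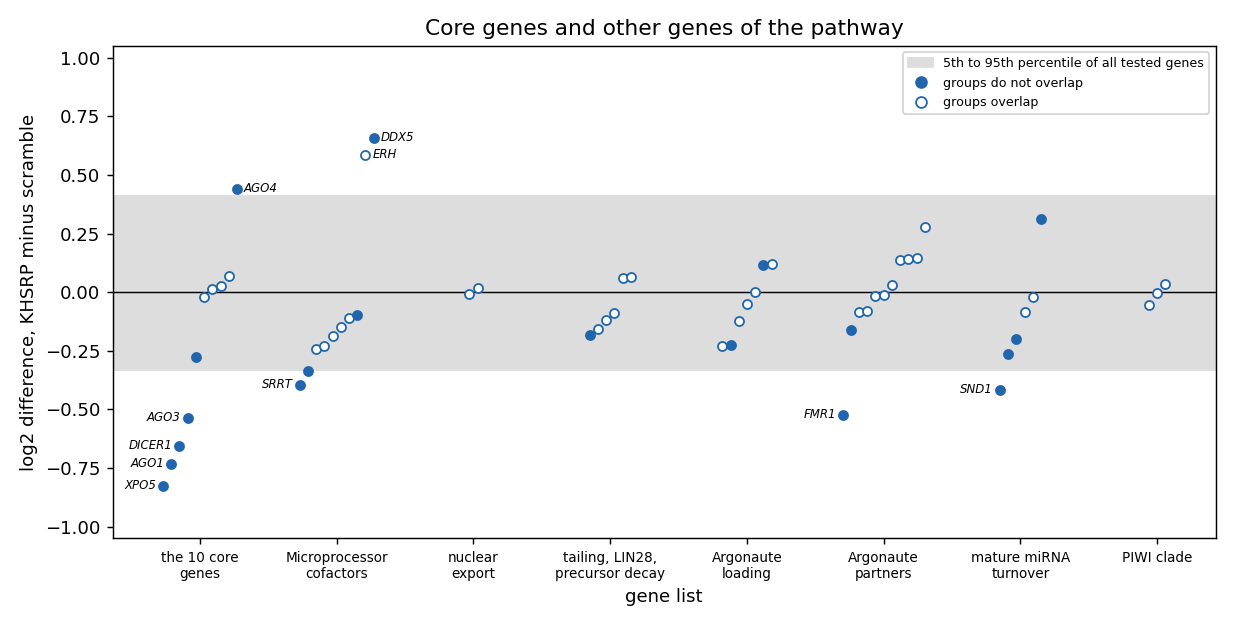
Log2 difference, KHSRP siRNA minus scramble siRNA (vertical axis), for the 10 core genes and for 45 other genes of the pathway by list (horizontal axis); filled points are genes whose groups do not overlap, and the grey band is the 5th to 95th percentile of all tested genes. XPO5, AGO1, DICER1 and AGO3 lie below every other gene shown, and FMR1 at -0.53 is the next.

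Of the whole profile over 6 arrays, each centred on its own mean, the 5 protein-coding genes nearest to XPO5 by root-mean-square distance were HEATR5B (0.0612), GEMIN5 (0.0778), SARS1 (0.0957), MYCBP2 (0.0992) and PHKA1 (0.0992), on the log2 scale. GEMIN5 and SARS1 were among the called genes, at -0.84 (SE 0.12) and -0.77 (SE 0.12), each with a limma adjusted p of 0.0473. HEATR5B, MYCBP2 and PHKA1 were not called (limma adjusted p = 0.0722, 0.0640 and 0.0530). These genes were picked for profiles like that of XPO5 on the same arrays, so estimates near its own follow from the choice. The nearest of the other 9 machinery genes was AGO3, at a distance of 0.216.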

How the data were processed

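The submitters' processing notes list RMA, Affymetrix Expression Console, Transcriptome Analysis Console and build hg19, and the sources used here give no versions or settings. The authors deposited log2 intensities for 70523 rows, used as they stand. RMA can compress differences of dim genes. Array maxima of 19.72 to 19.93 leave the exact scale unknown.

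Of 25324 annotated rows, those with 1 symbol were named through the platform annotation and a RefSeq gene table (GRCh38.p14), plus 10 rows with several symbols but 1 protein-coding gene, for KHSRP and the listed genes. The row with the highest mean stood for a gene, giving 22421 genes. KHSRP siRNA arrays were compared with scramble arrays by limma 3.58.1 in R 4.3.3 (lmFit, eBayes), adjusted by Benjamini-Hochberg over all genes. The fit was tested on simulated data. Single values were also tested by exact permutation. The genes and lists were chosen with earlier results of these data known.

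Named genes were KHSRP, all 10 members, and, per pathway list, called genes, the largest difference and the highest mean; XPO5's nearest profiles followed by rule. XPO1, LIN28A, LIN28B, PTGES3, HSP90AA1, SRRT, NCBP1, SAFB2, ERH and LIMD1 were named beyond it. So were XRN1, PNPT1, TENT4B, DICER1-AS1 and the markers. Of the 49 listed cofactors, 4 were not analysed here. Alternatives changed the normalization, filters, rows, variance model, block, weights and arrays.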

Additional observations from a re-analysis of the deposited data

How the results depend on the processing

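Arrays carry no depth, so 3 arrays per group and signal over background limit the precision. Of 170 member values under alternatives, 157 kept their sign. The 13 others belong to DGCR8, TARBP2 and AGO2, whose intervals span 0, and the cause was not tested. The count of called genes, 170, was 1 with the replicate number as a block, 417 among genes above the median level, 415 above the olfactory receptor level, 707 with array weights and 32 on values quantile-normalized once more. It was 0 by limma after median centring, with an intensity trend and robust prior, over all rows, and with a covariate for array medians added after the data were seen (3115, 3102, 7130 and 3540 at an unadjusted p under 0.05). Leaving out 1 array gave 0 to 336, the latter without KHSRP siRNA replicate 1.

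With the replicate block, XPO5, DICER1, AGO1 and AGO3 kept their estimates, with limma adjusted p of 0.0983, 0.0912, 0.122 and 0.113. The numbers were not taken as pairs: deviations of same-numbered arrays correlated at 0.164, 0.0596 and -0.0763, and not every array correlated best with its own number.

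Of the 10 genes, 4 were called among genes above the median level, above the olfactory receptor level and with array weights; fewer genes are tested in the first 2. XPO5, DICER1, AGO1 and AGO3 had differences of -0.83, -0.66, -0.73 and -0.54 under both filters (adjusted p 0.0355, 0.0355, 0.0482 and 0.0414 above the olfactory receptor level) and of -0.89, -0.64, -0.82 and -0.60 with array weights, which also called 1 pathway gene. Leaving out 1 array gave 0 to 1 called members and 0 to 1 called pathway genes, with DICER1 at -0.71 to -0.55 and DDX5 at 0.50 to 0.91.

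Signs turned as follows. On values quantile-normalized once more TARBP2 was at -0.024, AGO2 at -0.019 and RAN at -0.040; after median centring TARBP2 was at -0.0096 and RAN at -0.0078; with array weights RAN was at -0.015; with the covariate for array medians DGCR8 was at 0.067 and PIWIL1 at 0.013. Leaving out 1 array gave -0.17 to 0.079 for DGCR8, -0.015 to 0.064 for TARBP2, -0.031 to 0.13 for AGO2, -0.25 to 0.026 for DDX17, -0.028 to 0.047 for RAN and -0.047 to 0.026 for PIWIL1.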

Other observations

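Differences followed the genomic span of genes weakly. Over 17161 tested protein-coding genes, Spearman's rho between span in the RefSeq gene table and log2 difference was -0.12, a description across genes of the same 6 arrays, and among 9827 genes above the olfactory receptor level it was -0.18. In that brighter set the median difference was 0.09 in the shortest of 5 classes of span, equal in size over all protein-coding genes, and -0.02 in the longest, and 31.9% and 53.2% of genes lay below 0. The 5 machinery genes with lower KHSRP siRNA values lay between the 69.2nd percentile of span (XPO5) and the 88.3rd (AGO3). AGO2, at the 85.9th percentile, and AGO4, at the 67.3rd, were at 0.03 and 0.44. TARBP2, at the 15.1st, was at 0.01. The part of gene span in these differences was not tested.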
